A study of Mus musculus with 16 samples.

Results

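Fetal growth genes, 10 of the 53379 genes counted, were followed across sorted cells of the mouse neocortex at postnatal day 4. They are Igf2bp1, Igf2bp2, Igf2bp3, Lin28a and Lin28b, which code for RNA-binding proteins, and Hmga1, Hmga2, Hmgn1, Hmgn2 and Hmgn3, which code for chromatin-binding proteins. They were found by gene symbol. Igf2bp1 and Hmgn2 were included because their counts rose in Eed-/- libraries labelled neuro, so their change there is given as a description and not as a test. Both had higher levels in every Eed-/- neuro library than in either Eed+/+ one, Hmgn1 and Hmgn3 were the most abundant members by mean level in every group, and Lin28a and Lin28b had at most 7 reads in any library. In astro libraries 0 of the 5 members tested changed with genotype at an adjusted p of 0.05, as did 0 of all 8956 genes tested (0.0%), so this is no result about the members.

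IGF2BP proteins bind messenger RNAs, among them that of the growth factor IGF2, and influence their stability, transport and translation. LIN28 proteins bind the precursors of let-7 microRNAs and block their maturation, and let-7 in turn represses the messages of Lin28, Hmga2 and Igf2bp genes. HMGA proteins bind AT-rich DNA and bend it, while HMGN proteins bind nucleosomes and counteract chromatin compaction. Several of these genes are active in embryonic progenitors of the cortex and decline as development proceeds. EED belongs to the core of Polycomb repressive complex 2 (PRC2), the enzyme complex that places the repressive mark on lysine 27 of histone H3.

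The cells came from mice labelled as strain CD1, on a background that the study's methods give as a mix of C57BL/6 and CD1, carrying MADM cassettes on chromosome 7 (mosaic analysis with double markers, in which recombination between homologous chromosomes couples cell colour to genotype), Emx1-Cre and an XGFAP-lacZ transgene. Emx1-Cre acts in the dorsal telencephalic lineage, which includes cortical projection neurons and astrocytes, and lacZ is driven by a human GFAP promoter. All libraries were made from green (GFP+) cells, which in both genotypes carry chromosome 7 from the father only. In wt animals green cells are Eed+/+, and in mosaic animals green cells are Eed-/- among mostly heterozygous neighbours. Cells labelled astro were GFP+/lacZ+ and cells labelled neuro were GFP+/lacZ-, so the second class is defined by lack of lacZ staining and not by a neuronal reporter. There were 5 Eed+/+ and 5 Eed-/- astro libraries and 2 Eed+/+ and 3 Eed-/- neuro libraries, made from individual animals. A 16th library carries conflicting cell type labels and entered no comparison.

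Reads assigned to genes ranged from 211736 to 3178529 over the 15 libraries. A library was within limits if it had at least 1000000 uniquely aligned reads making up at least 60% of its reads, and 10 of 15 were. Outside were Eed+/+ astro replicate 3, Eed-/- astro replicates 1, 3 and 4, and Eed+/+ neuro replicate 2. In the plots these appear as open circles. A count of 3 reads, taken as the floor of detection, corresponds to between 0.944 and 14.2 counts per 1000000 gene reads (CPM), depending on the library. Eed had 0 to 26 reads in Eed-/- astro libraries and 2 to 204 in Eed+/+ ones, and was at 16.4, 38.0 and 33.4 CPM in Eed-/- against 64.9 and 81.1 CPM in Eed+/+ neuro libraries, which did not overlap. Since reads from exons that remain after deletion also count, the labels can be checked only partly this way.

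The neuro label was checked against 12 neuron and 12 astrocyte markers, and the data bore it out only in part. The astrocyte markers summed to between 7359 and 9178 CPM in the neuro libraries within the limits, below every astro library within the limits (12245 to 31199 CPM), and to 23870 CPM in Eed+/+ neuro replicate 2, which is outside them. They stood above the neuron markers in each of the 5 neuro libraries. The neuron markers summed to between 1273 and 3136 CPM there, and overlapped with the astro libraries within the limits (280 to 3009 CPM). Of the neuron markers, Syt1 was at 0 in the Eed+/+ neuro libraries and the other 11 were detected. Against Eed+/+ neuro libraries, Eed+/+ astro libraries had positive log2 fold changes for 9 of 12 astrocyte markers (median 0.87) and also for 9 of 12 neuron markers (median 0.91), with 0 called in either list. In the Eed-/- comparison, 11 of 12 astrocyte markers were positive (median 0.51) and 0 of 12 neuron markers (median -1.74), against -0.72 over all genes. There the 3 neuro libraries were within the limits, and 3 of the 5 astro libraries were outside. On these mixed results the libraries are called by their label, neuro, and not neurons.

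**Figure D1:**
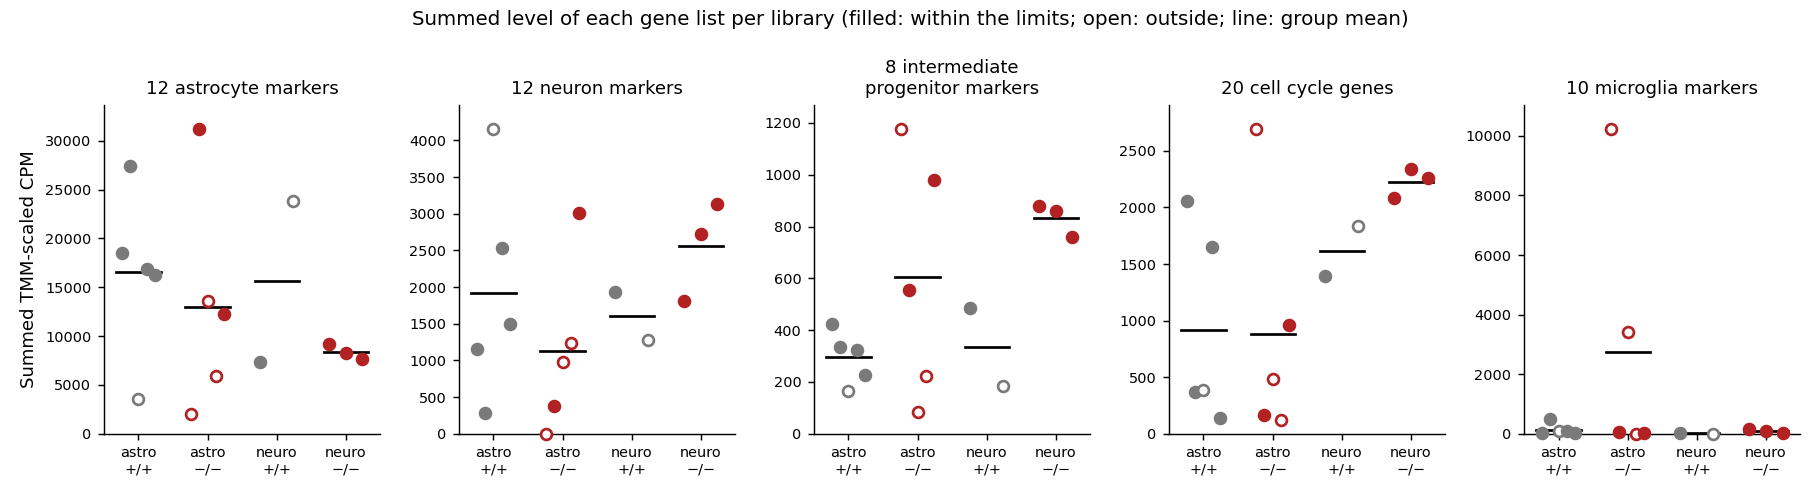
Summed TMM-scaled CPM (vertical axis, linear) of 5 marker and cell cycle gene lists in each of the 15 libraries, by group. Filled circles are libraries within the depth and alignment limits, open circles those outside, and lines are group means. Astrocyte markers stand between 7359 and 9178 CPM in the filled neuro libraries and at 23870 CPM in the open one, and cell cycle genes between 2086 and 2342 CPM in the Eed-/- neuro libraries against 1395 and 1835 CPM in the Eed+/+ ones.

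Because let-7 and LIN28 form a loop with several members, let-7 sequences and their matches are shown first. In the mouse, 9 mature let-7 family microRNAs (RefSeq, GRCm38.p6) share 1 seed, bases 2 to 8, in capitals in these examples.
mmu-let-7a-5p: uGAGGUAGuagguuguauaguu
mmu-let-7d-5p: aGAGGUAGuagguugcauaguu
mmu-miR-98-5p: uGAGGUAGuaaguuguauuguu
The reverse complement of the seed, CTACCTC, was searched on the transcript strand of the longest annotated 3′ UTR of each gene (GENCODE, GRCm38). It occurred in 9.03% of 21001 3′ UTRs, at 0.07 matches per kb. Igf2bp1, Lin28b and Hmga2 each had 4 matches, Lin28a had 2, Igf2bp2, Igf2bp3 and Hmga1 had 1 each, and Hmgn1, Hmgn2 and Hmgn3 had 0. Of 604 3′ UTRs with a length like that of Igf2bp1 (6337 bases), 34.3% had a match and 0.331% had as many as 4. For Hmga2 (3014 bases), 0.123% of 3′ UTRs of like length had as many. The matches of Igf2bp1, a member picked for its rise, and of Hmga2, a classical let-7 target, are printed with the match in capitals, on the minus strand of GRCm38.
Igf2bp1 match 1, chr11:95961773-95961797: gtgcgaagtaaaCTACCTCaaggtg
Igf2bp1 match 2, chr11:95959352-95959376: cagtgctattaaCTACCTCagcccc
Igf2bp1 match 3, chr11:95958758-95958782: taaatggatgaaCTACCTCagtcct
Igf2bp1 match 4, chr11:95958135-95958159: tttggttttaatCTACCTCttagca
Hmga2 match 1, chr10:120364219-120364243: gacattcaatttCTACCTCagcatc
Hmga2 match 2, chr10:120362982-120363006: cactcctcaataCTACCTCtgaatg
Hmga2 match 3, chr10:120362544-120362568: atttgcaaggaaCTACCTCcacact
Hmga2 match 4, chr10:120361686-120361710: caaaacacactaCTACCTCttaagt
A match describes the sequence only. Mature let-7 was not measured here, since libraries were made from polyadenylated RNA.

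Promoters were described by their CpG dinucleotides, because PRC2 targets in mammals are often CpG-rich. In RefSeq (GRCm38.p6) promoters of 300 bases, from 250 before to 50 after the start, the median over 32851 promoters was 7 CpG (quartiles 3 and 20). Of the 8 members with an entry, Igf2bp2 had 47, Hmga1 40 and 38 at its 2 starts, Hmgn1 37, Igf2bp3 25, Hmgn2 25, Hmga2 12, Lin28a 10 and Lin28b 8. The windows of Lin28b (chr10:45470152-45470451) and Hmgn2 lie inside the GENCODE genes, whose 5′ ends are at 45486395 and 133968650. For these 2 members the CpG counts describe a start within the gene and not its annotated 5′ end. At least as many CpG as in Hmgn2 were found in 18.4% of all promoters. The Hmgn2 promoter is printed as the member picked for its rise that has an entry, with CpG in capitals.
Hmgn2 promoter, chr4:133967942-133968241, minus strand: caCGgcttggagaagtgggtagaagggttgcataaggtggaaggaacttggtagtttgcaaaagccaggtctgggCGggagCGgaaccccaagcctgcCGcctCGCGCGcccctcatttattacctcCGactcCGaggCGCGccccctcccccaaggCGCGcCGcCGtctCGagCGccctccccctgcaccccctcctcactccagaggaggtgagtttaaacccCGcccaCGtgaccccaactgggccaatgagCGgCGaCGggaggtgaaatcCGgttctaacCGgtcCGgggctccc
Igf2bp1 and Hmgn3 had no entry.

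**Figure D2:**
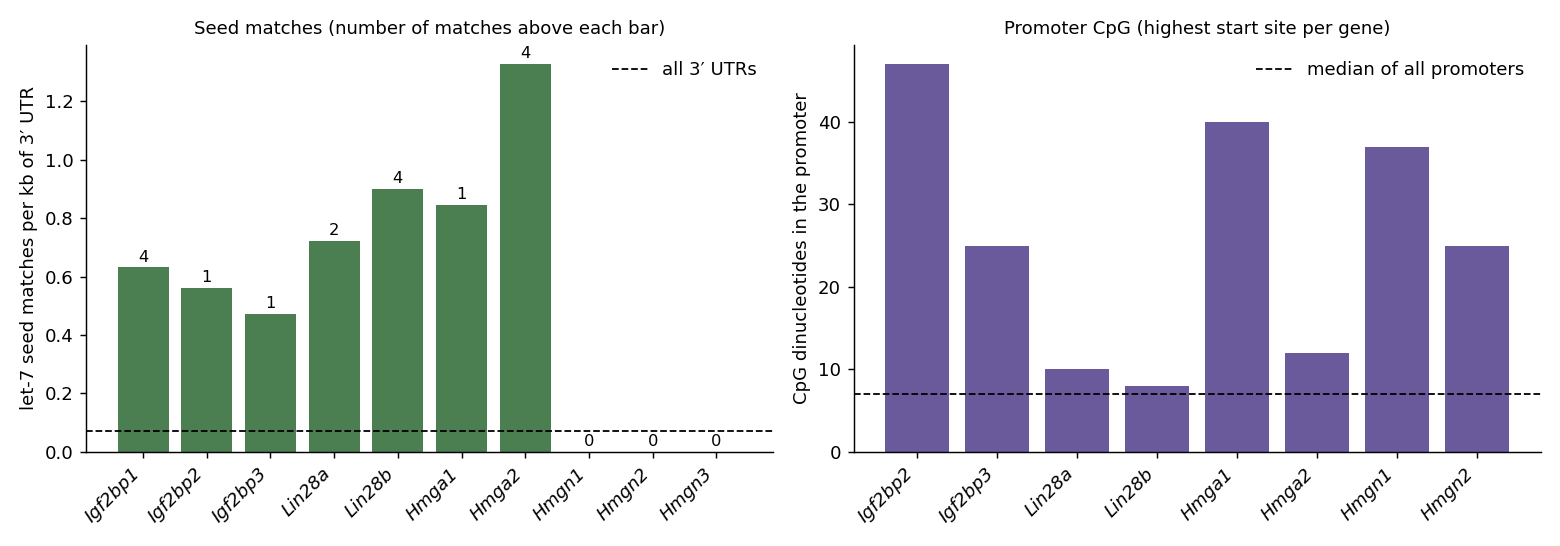
Left, let-7 seed matches per kb of 3′ UTR for the 10 genes (bars, with the number of matches above each), with the rate over all 3′ UTRs, 0.07 per kb, as a dashed line. Right, CpG dinucleotides in the 300-base promoter of the 8 genes with an entry (bars), with the median of all promoters, 7, as a dashed line. The 3 Hmgn genes have 0 let-7 matches, and Hmgn2 has 25 promoter CpG.

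Igf2bp1 (ENSMUSG00000013415.9, chromosome 11, 95957163 to 96005940, minus strand, protein coding) codes for an IGF2 messenger RNA-binding protein needed for normal embryonic growth. In neuro libraries, Eed+/+ replicates 1 and 2 gave 8 and 3 Igf2bp1 reads, while Eed-/- replicates 1, 2 and 3 gave 51, 85 and 92. Scaled by library size and by TMM factors (trimmed mean of M values), these were 4.29 and 9.36 CPM against 39.9, 43.6 and 57.9 CPM. All 3 Eed-/- libraries lay above both Eed+/+ ones, and the highest Eed+/+ value came from the library outside the limits.

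The fitted log2 fold change of Igf2bp1 in neuro libraries was 2.86 (SE 0.93, n = 3 against 2), against a median of 0.15 over all 11862 genes tested. Pooled over libraries, the share of gene reads was 8.95 times as high in Eed-/- cells, with an exact 95% interval for counting error of 4.91 to 18.2, and 10.3 times as high (5.15 to 24.2) without the library outside the limits. The log2 fold change was 2.18 without Eed+/+ replicate 1 and 3.40 without Eed+/+ replicate 2, the library outside the limits. These values carry no test, as the gene was picked on them.

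In astro libraries, which the choice of Igf2bp1 did not use, Eed+/+ replicates 1 to 5 gave 0, 4, 0, 17 and 0 Igf2bp1 reads, and Eed-/- replicates 1 to 5 gave 0, 71, 1, 0 and 8. Eed-/- replicate 2 alone, at 47.2 CPM, reached the level of the Eed-/- neuro libraries, and the next highest were Eed-/- replicate 5 at 8.09 CPM and Eed+/+ replicate 4 at 7.84 CPM. That single library held 88.8% of all Igf2bp1 reads of its group. The groups overlapped.

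The group means of Igf2bp1 were 11.6 ± 20.1 CPM (SD, n = 5) in Eed-/- and 1.87 ± 3.40 CPM (SD, n = 5) in Eed+/+ astro libraries. The pooled ratio was 9.60 (exact 95% interval 5.87 to 16.3, counting error only). It was 2.10 (0.848 to 4.79) without Eed-/- replicate 2 and 38.0 (14.3 to 143) without Eed+/+ replicate 4, which are alternatives chosen after seeing the data.

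Igf2bp1 did not pass the filter on low counts in the astro comparison, so the main fit gave it no value. With the 6 libraries inside the limits, Igf2bp1 had a log2 fold change of 3.51 (SE 1.87, n = 2 against 4, edgeR adjusted p = 0.9998). Without the filter it was 2.54 (SE 2.01, edgeR adjusted p = 0.629), and in a fit over all 15 libraries 2.56 (SE 1.54, edgeR adjusted p = 0.757). None passed the threshold of 0.05.

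**Figure D3:**
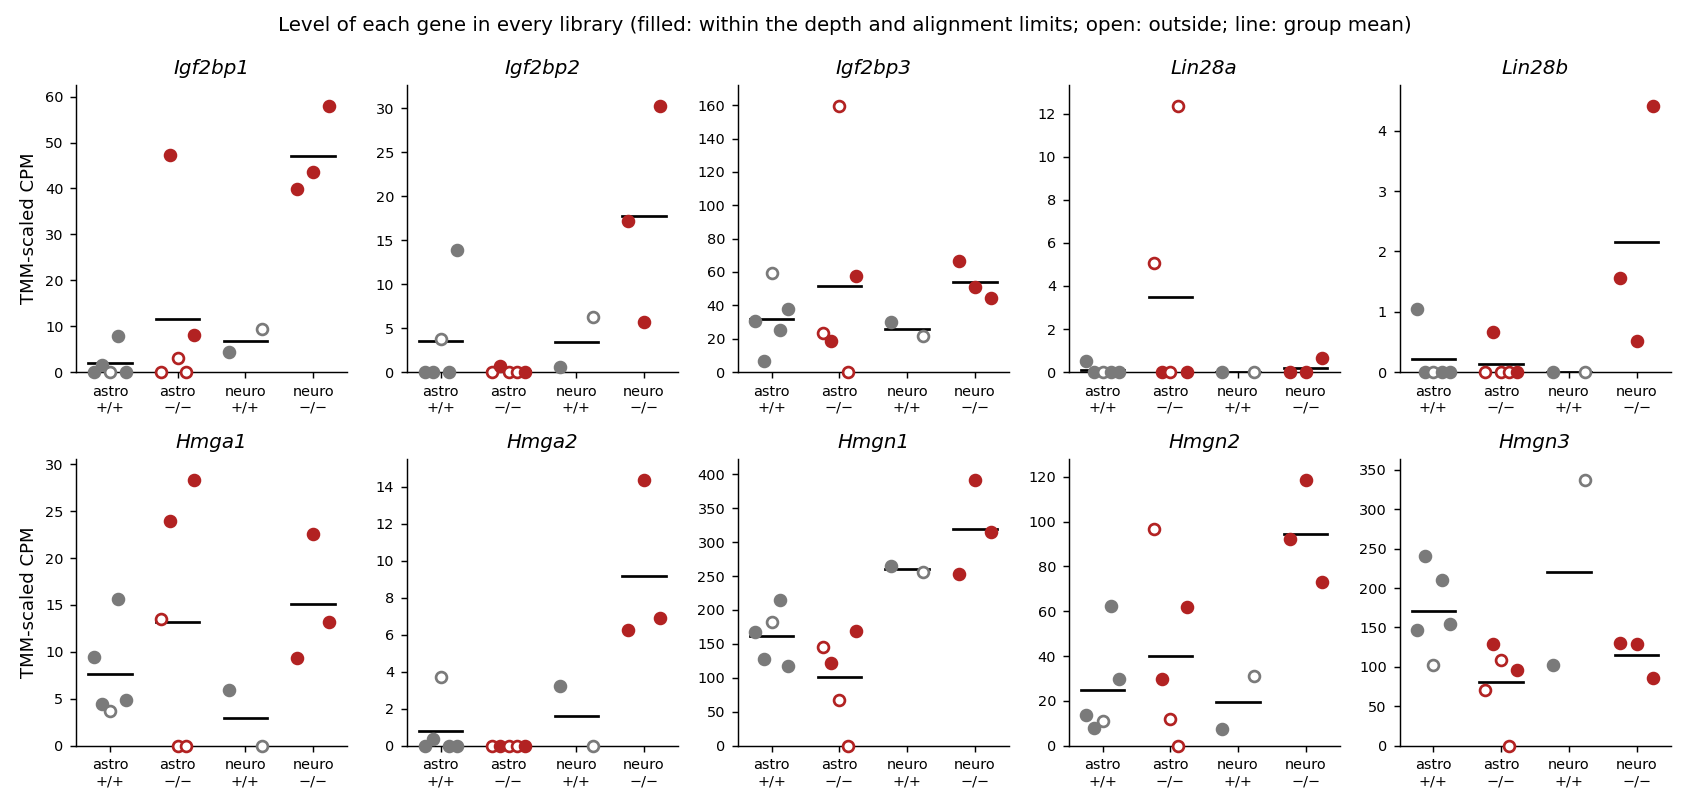
TMM-scaled CPM (vertical axes, linear, a scale for each gene) of the 10 genes in each of the 15 libraries, by cell type label and Eed genotype. Filled circles are libraries within the limits, open circles those outside, and lines are group means. Igf2bp1 is between 39.9 and 57.9 CPM in the Eed-/- neuro libraries and at 47.2 CPM in 1 Eed-/- astro library.

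Igf2bp2 (ENSMUSG00000033581.16, chromosome 16, 22059009 to 22163299, minus strand) is the family member that stays expressed in many adult tissues. Eed+/+ neuro replicates 1 and 2 gave 1 and 2 Igf2bp2 reads, while Eed-/- replicates 1, 2 and 3 gave 22, 11 and 48. At 0.537 and 6.24 CPM against 17.2, 5.64 and 30.2 CPM, the groups overlapped. The log2 fold change was 2.94 (SE 1.43, n = 3 against 2), and it was 1.33 without Eed+/+ replicate 1 and 4.81 without Eed+/+ replicate 2, which is outside the limits.

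In astro libraries Eed+/+ replicates 1 to 5 gave 0, 0, 2, 0 and 20 Igf2bp2 reads and Eed-/- replicates gave 0, 1, 0, 0 and 0, so that it failed the filter there. Nearly all its astro reads came from Eed+/+ replicate 5, at 13.9 CPM. Between the Eed-/- groups its share of gene reads was 63.7 times as high in neuro as in astro libraries, from 81 reads against 1, with a counting interval of 11.1 to 2549. The fitted log2 fold change of astro against neuro was -5.85 (SE 2.09, n = 5 against 3), and edgeR's adjusted p of 0.327 did not pass.

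Igf2bp3 (ENSMUSG00000029814.10, chromosome 6, 49085223 to 49214957, minus strand), an oncofetal relative of Igf2bp1, was present in every neuro library. It was at 30.0 and 21.8 CPM in Eed+/+ and at 66.5, 50.8 and 44.7 CPM in Eed-/- replicates. All 3 Eed-/- libraries lay above both Eed+/+ ones, with a log2 fold change of 0.93 (SE 0.72, n = 3 against 2).

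In astro libraries Eed+/+ replicates 1 to 5 gave 58, 18, 32, 54 and 55 Igf2bp3 reads and Eed-/- replicates gave 14, 28, 54, 0 and 57. Its levels were 30.4, 6.72, 59.4, 24.9 and 38.1 CPM against 23.7, 18.6, 159, 0 and 57.7 CPM, and both the highest and the lowest value came from Eed-/- libraries outside the limits. The log2 fold change of 0.76 (SE 1.53, n = 5 against 5, edgeR adjusted p = 0.9999) became -0.32 without Eed-/- replicate 3. Its locus overlaps Malsu1 on the opposite strand, with which it shares 18.1% of its 50-base words. The counting did not use strand, so reads on the shared stretch count for neither gene.

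Lin28a (ENSMUSG00000050966.9, chromosome 4, 134003330 to 134018841, minus strand) and Lin28b (ENSMUSG00000063804.8, chromosome 10, 45376620 to 45486395, minus strand), the inhibitors of let-7 maturation, were nearly undetected. Lin28a had 1 read over all Eed+/+ astro libraries, 7 over the Eed-/- astro libraries, 0 over the Eed+/+ neuro and 1 over the Eed-/- neuro libraries. Its 7 reads lay in Eed-/- astro replicates 1 and 4 (3 and 4 reads), both outside the limits. For 7 reads against 1 in astro libraries the pooled ratio was 17.6 (exact 95% interval 2.27 to 795, counting error only), and within the limits there were 0 reads against 1. An overlapping gene on the other strand, Gm13061, had 9 reads in the Eed-/- astro libraries and 0 in the others.

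Lin28b had 2, 1 and 7 reads in Eed-/- neuro replicates 1, 2 and 3 and 0 in both Eed+/+ ones. For 10 reads against 0, the exact 95% interval of the ratio begins at 0.968, so no difference is not excluded, and only the last of the 3 libraries exceeded 3 reads. It had 2 and 1 reads over the Eed+/+ and Eed-/- astro libraries. Neither Lin28 gene passed the filter in any main comparison, so the main fits did not test them.

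Hmga1 (ENSMUSG00000046711.15, chromosome 17, 27556497 to 27563674, plus strand) is a proliferation-linked DNA-bending protein gene. Eed+/+ neuro replicates gave 11 and 0 Hmga1 reads, and Eed-/- neuro replicates 12, 44 and 21. At 5.90 and 0 CPM against 9.39, 22.6 and 13.2 CPM the groups did not overlap, with a log2 fold change of 1.84 (SE 1.11, n = 3 against 2). Without Eed+/+ replicate 1 it was 7.29 (SE 3.06), a fitted value against a library with 0 reads and so no measure of the size, and 1.33 without Eed+/+ replicate 2.

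In astro libraries Hmga1 was at 9.43, 4.48, 3.71, 15.7 and 4.85 CPM in Eed+/+ and at 13.5, 23.9, 0, 0 and 28.3 CPM in Eed-/- replicates 1 to 5. The groups overlapped, and Eed-/- replicates 2 and 5, the 2 within the limits, were the highest of the 10. The log2 fold change was 0.85 (SE 1.49, n = 5 against 5, edgeR adjusted p = 0.9999). More than any other member, its counts depend on unique alignment, since 55.0% of its 50-base words also occur in Hmga1b.

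Hmga2 (ENSMUSG00000056758.14, chromosome 10, 120361275 to 120476469, minus strand), known from fetal neural stem cells, gave 6 and 0 reads in the Eed+/+ neuro replicates, and 8, 28 and 11 in the Eed-/- ones. At 3.22 and 0 CPM against 6.26, 14.4 and 6.92 CPM the groups did not overlap, and the log2 fold change was 1.91 (SE 1.23, n = 3 against 2). The value of 0 came from the library outside the limits, where 3 reads correspond to 8.73 CPM, above the level in Eed-/- replicates 1 and 3, so a level such as theirs was not detectable in it. Fitted log2 fold changes were 6.59 (SE 3.67) without Eed+/+ replicate 1, again against a library with 0 reads, and 1.49 without Eed+/+ replicate 2. Hmga2 was at 0 in all 5 Eed-/- astro libraries, and had 3 reads over the Eed+/+ ones.

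Between the Eed-/- groups, Hmga2 had 47 reads in neuro and 0 in astro libraries, and the exact 95% interval of the pooled ratio begins at 9.64 (counting error only). Against the floor of 3 reads per library, which averages 6.81 CPM over the 5 astro libraries, its mean of 8.92 CPM before TMM scaling was at least 1.31-fold higher. The edgeR adjusted p for this contrast, 0.327 (n = 5 against 3), did not pass the threshold. In the interaction, the genotype change in neuro minus that in astro libraries, the edgeR adjusted p was 0.9999 for Hmga2 and 0.9999 for Igf2bp2. Both failed the filter among astro libraries and were highest in the Eed-/- neuro ones. The interaction therefore does not decide whether their genotype change differed.

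Hmgn1 (ENSMUSG00000040681.14, chromosome 16, 96120618 to 96127729, minus strand), a nucleosome-binding protein gene, was among the most abundant members in every group. It was at 265 and 256 CPM in Eed+/+ and 253, 392 and 315 CPM in Eed-/- neuro replicates, which overlapped, with a log2 fold change of 0.19 (SE 0.62, n = 3 against 2). In astro libraries it ranged from 118 to 214 CPM in Eed+/+ and from 0 to 169 CPM in Eed-/- replicates (medians 167 and 122 CPM). The 0 came from Eed-/- replicate 4, which is outside the limits. The log2 fold change there was -0.62 (SE 1.31, n = 5 against 5, edgeR adjusted p = 0.9999), against a median of -0.54 over the 8956 genes tested. Within the limits it was -0.10, against a median of -0.02, with means of 157 ± 43.9 (SD, n = 4) and 145 ± 33.4 CPM (n = 2).

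Hmgn2 (ENSMUSG00000003038.15, chromosome 4, 133964738 to 133968650, minus strand), its close relative, gave 14 and 10 reads in the Eed+/+ neuro replicates, and 118, 231 and 116 in the Eed-/- ones. These were 7.51 and 31.2 CPM against 92.3, 119 and 73.0 CPM. All 3 Eed-/- libraries lay above both Eed+/+ ones, which differed among themselves by more than 4-fold.

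The log2 fold change of Hmgn2 in neuro libraries was 2.31 (SE 0.85, n = 3 against 2) and is not tested, as the gene was picked on it. It was 3.62 without Eed+/+ replicate 2, the library outside the limits, and 1.46 without Eed+/+ replicate 1. The pooled ratio was 8.37 (exact 95% interval 5.55 to 13.2, counting error only).

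The choice of Hmgn2 did not use the astro libraries. In these, Hmgn2 was at 13.6, 7.84, 11.1, 62.3 and 29.8 CPM in Eed+/+ and at 96.5, 29.9, 11.8, 0 and 61.7 CPM in Eed-/- replicates 1 to 5. The groups overlapped over nearly their whole range. The log2 fold change was 0.77 (SE 1.57, n = 5 against 5) with an edgeR adjusted p of 0.9999. It was 0.10 without Eed-/- replicate 1, which is outside the limits and held 10229 CPM of microglia and 5723 CPM of erythroid markers, and 1.53 without Eed+/+ replicate 4. Hmgn2 shares 25.4% of its 50-base words with 18 genes elsewhere, of which 12 are pseudogenes, and reads that fit several places were not counted.

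Hmgn3 (ENSMUSG00000066456.14, chromosome 9, 83109948 to 83146685, minus strand), the remaining nucleosome-binding member, did not share the direction of Hmgn2. It was at 102 and 337 CPM in Eed+/+ and 131, 129 and 85.6 CPM in Eed-/- neuro replicates, with a log2 fold change of -1.08 (SE 0.68, n = 3 against 2). The high value came from the library outside the limits, and without it the log2 fold change was 0.14. In astro libraries it ranged from 102 to 241 CPM in Eed+/+ and from 0 to 130 CPM in Eed-/- replicates, with means of 171 ± 54.9 and 81.2 ± 50.1 CPM (SD, n = 5 each, edgeR adjusted p = 0.9999). The 0 came from Eed-/- replicate 4, which is outside the limits. Within the limits the means were 188 ± 45.2 (SD, n = 4) and 113 ± 23.7 CPM (n = 2), with a log2 fold change of -0.73.

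**Figure D4:**
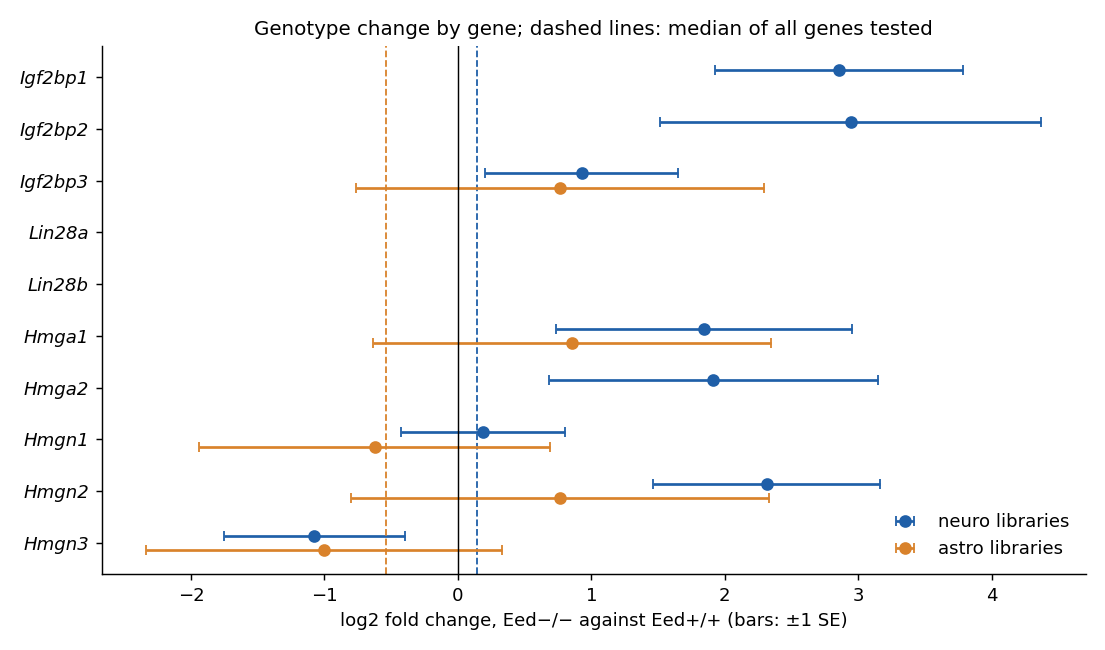
Log2 fold change of Eed-/- against Eed+/+ libraries (horizontal axis) with 1 SE for the members that passed the filter, in neuro (blue) and astro (orange) libraries. Dashed lines are the medians of all genes tested, 0.15 and -0.54 (-0.02 in the astro libraries within the limits). In neuro libraries Igf2bp1 stands at 2.86 and Hmgn2 at 2.31, and no astro value passed the test.

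Counted over the members, 8 of 10 passed the filter in neuro libraries and 5 of 10 in astro libraries. At an adjusted p of 0.05 edgeR called 0 of 11862 genes in neuro libraries (0.0%), with 862 (7.27%) at an unadjusted p under 0.05, and 0 of 8956 (0.0%) in astro libraries, with 108 (1.21%). DESeq2 called 27 and 1 genes. In neuro libraries Igf2bp1, Igf2bp3, Hmga1, Hmga2 and Hmgn2 had all Eed-/- libraries above all Eed+/+ ones, as did 15.6% of all genes tested, and 0 members had all of them below, as did 7.72%. For Hmga2 this rests partly on the library with a floor of 8.73 CPM. Lin28b, not tested in the main fit, did so too, from 1 to 7 reads against 0. The choice used this contrast, and genes that pass a filter through their high group had to differ. In astro libraries all 5 tested members overlapped, where 0.0112% of genes were higher and 1.72% lower without overlap.

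Between the cell type labels, Eed+/+ astro and neuro libraries were compared for the 8 members that passed the filter over all 15 libraries, and 0 were called, against 0.00748% of 13367 genes (2.29% at an unadjusted p under 0.05). In this Eed+/+ comparison Hmgn1 was the member without overlap, lower in astro libraries, as were 9.29% of genes, while 0 members and 4.14% of genes were higher without overlap (log2 fold change -0.69, SE 1.39, edgeR adjusted p = 1, n = 5 against 2). In the Eed-/- comparison 0 members were called, against 0.0598% of genes. Igf2bp2, Hmga2 and Hmgn1 were lower in all Eed-/- astro libraries than in all Eed-/- neuro ones, as were 11.4% of genes, while 0 members and 0.314% of genes were higher without overlap. At an unadjusted p under 0.05 this comparison held 2 members, Igf2bp2 and Hmga2, and 7.0% of genes. Both were highest in the Eed-/- neuro libraries and failed the filter among astro libraries alone, and genes that pass a filter through their high group had to differ, so nothing is read from their count. The median over all genes there was -0.72. In the interaction 0 members were called, against 0.0524% of genes (3.61% at an unadjusted p under 0.05). It contains the neuro genotype change on which Igf2bp1 and Hmgn2 were picked, and also includes Igf2bp2 and Hmga2. Nothing is therefore read from the count of members there.

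Levels per kb of exon set the members in order. In Eed-/- neuro libraries Hmgn1 was highest at 99.3 ± 21.5 CPM per kb (SD, n = 3), followed by Hmgn3 at 61.5 ± 13.6 and Hmgn2 at 30.9 ± 7.47, each apart from the next. Hmga1 (7.09 ± 3.19), Igf2bp3 (6.62 ± 1.38) and Igf2bp1 (4.87 ± 0.98) followed, and neighbours among them overlapped. Igf2bp2 (2.39 ± 1.66) and Hmga2 (1.36 ± 0.66) overlapped, and both Lin28 genes were under 0.25 CPM per kb. In Eed+/+ neuro libraries Hmgn3 (118 ± 88.8, n = 2) and Hmgn1 (80.9 ± 2.01) led and overlapped, and Hmgn2 was at 6.33 ± 5.48. In the Eed+/+ neuro library within the limits the order of the first pair was the opposite, with Hmgn1 at 82.3 and Hmgn3 at 54.8 CPM per kb. In Eed+/+ astro libraries the order was led by Hmgn3 (91.5 ± 29.4, n = 5) and Hmgn1 (50.2 ± 12.3), and in Eed-/- astro libraries by the same genes at 43.4 ± 26.8 and 31.3 ± 21.0.

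Levels of other gene lists in the neuro comparison are set beside the share of all tested genes with a positive log2 fold change, 6571 of 11862. Cell cycle genes (20 genes) summed to 1395 and 1835 CPM in Eed+/+ and 2086, 2342 and 2257 CPM in Eed-/- libraries, and 16 of 20 had positive log2 fold changes (median 0.88). All 7 tested intermediate progenitor markers were positive (median 1.26), with sums of 486 and 184 against 879, 858 and 759 CPM. Of 12 neuron markers 9 were positive (median 1.78, sums of 1939 and 1273 against 1805, 2725 and 3136 CPM), 3 of 12 astrocyte markers were positive (median -0.22), 4 of 4 tested microglia markers were positive (sums of 35.4 and 0 against 161, 103 and 18.3 CPM), and 5 of 9 oligodendrocyte lineage markers were positive (median 0.01). The neuron and microglia sums overlapped between genotypes, and the cell cycle and intermediate progenitor sums did not. The 8 endothelial markers, of which 1 was tested, summed to 240 and 284 CPM in Eed+/+ and 217, 125 and 104 CPM in Eed-/- libraries, also without overlap. Of these lists 0 genes were called. The part of cell makeup in the rise of Igf2bp1 and Hmgn2 was not tested, and fewer cells of a type and less RNA per cell cannot be told apart in such bulk samples. In astro libraries, Eed-/- replicates 1 and 3 held 10229 and 3424 CPM of microglia markers, and Eed-/- replicates 1 and 4 held 5723 and 7801 CPM of erythroid markers. Their part in the astro values was not tested. Eed-/- astro replicate 2, with the high Igf2bp1 count, had the highest astrocyte marker sum of all libraries (31199 CPM), a neuron marker sum of 383 CPM and a cell cycle sum of 168 CPM. Intermediate progenitor markers summed to between 165 and 424 CPM in the Eed+/+ astro libraries and to 1176, 556, 85.6, 222 and 981 CPM in Eed-/- astro replicates 1 to 5, which had 0, 71, 1, 0 and 8 Igf2bp1 reads. Their part in the Igf2bp1 reads was not tested.

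The pathways around the members gave no call in either genotype comparison. Of 10 tested genes of let-7 maturation in neuro libraries the median log2 fold change was -0.22, with Dicer1, the enzyme that releases mature microRNAs, at -1.84 (SE 0.69, edgeR adjusted p = 0.668) and the export factor Xpo5 highest. The 15 let-7 targets outside the members had a median of -0.12, from -0.76 for Igdcc3 to 1.94 for the cell cycle factor E2f2. The 10 tested genes of IGF signalling had a median of -0.48, from -1.96 for the insulin receptor Insr to 0.50 for Igfbp3. Partner messenger RNA-binding proteins (15 tested) had a median of -0.09, with Ybx1 highest, at 517 ± 120 against 207 ± 204 CPM (SD, n = 3 and 2), and 13 other architectural chromatin genes a median of 0.22, with the linker histone Hist1h1e highest, at 44.7 ± 17.6 against 17.3 ± 11.2 CPM. In astro libraries the corresponding medians were -0.97, -0.96, 0.21, -0.46 and -0.88, against -0.54 over all genes. The median over all genes was -0.02 with only the astro libraries within the limits.

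Over the 15 libraries, the 3 genes with levels most like Igf2bp1 in rank among 13367 genes were Zdbf2 (Spearman 0.91), Chga (0.89) and Cdkn1a, the cell cycle inhibitor p21 (0.89). For Cdkn1a the means were 9.48 ± 15.3 and 74.2 ± 103 CPM in Eed+/+ and Eed-/- astro libraries (SD, n = 5 each) and 13.3 ± 10.0 and 223 ± 13.5 CPM in Eed+/+ and Eed-/- neuro libraries (n = 2 and 3). For Hmgn2 they were Syt4 (0.87), Pes1 (0.81) and Mapk10 (0.80). The correlation between Igf2bp1 and Hmgn2 themselves was 0.53. These are descriptions over libraries that share depth differences and groups.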

How the data were processed

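Smart-Seq v2 libraries of sorted GFP+ cells were sequenced by the authors and aligned with STAR to mm10 (GRCm38). The annotation they counted on is not stated in these sources. In the deposited files the unit is raw read counts by gene from unique alignments, and the unstranded column was used. Reads on a stretch shared by overlapping genes count as ambiguous there and for neither gene. They made up 0.934% to 5.66% of uniquely aligned reads in the 15 libraries. The 4 lines of read totals stayed out. Symbols and coordinates came from GENCODE M21. No per-sample column lacked a sample (0).

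The quasi-likelihood test of edgeR was run across genes (version 4.0.16, limma 3.58.1, R 4.3.3, TMM, filterByExpr, robust, two-sided, Benjamini-Hochberg over all genes tested, threshold 0.05). Genotype was fitted within astro (n = 5 and 5) and within neuro libraries (n = 2 and 3), while cell type and interaction contrasts used all 15. The study used DESeq2 (1.42.0 here, as an alternative). SE is the log2 fold change divided by the root of F. Intervals are exact 95% ones and, like the floor of 3 counts, cover counting error only, since reads are not independent molecules. The fitting steps were also run on simulated counts, whose outcome is not given here. Alternatives were other scalings, no filter, DESeq2, limma-voom, libraries within the limits, a replicate block, a library-run covariate, and leaving out each library. Members and lists were chosen with earlier results of these data known. All 10 members are named whatever their values. From each list the genes with extreme genotype changes could be named, and for Igf2bp1 and Hmgn2 the 3 genes of most similar rank pattern. Replicates are animals, per the labels.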

Additional observations from a re-analysis of the deposited data

Results flagged for a closer look

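Some values stood far from the rest of their group (Dixon's criterion, groups of 5). Of 19 groups examined 8 had such a library, and 4 of the 8 hold zeros in all but 1 library, where the criterion is met by construction. Its nominal rate of about 1 in 20 is for normally distributed values and is no reference for such low counts. Igf2bp1 was at 47.2 CPM in Eed-/- astro replicate 2, from 71 reads, and at 7.84 CPM in Eed+/+ astro replicate 4, from 17 reads. Igf2bp2 was at 13.9 CPM in Eed+/+ astro replicate 5, from 20 reads, and at 0.665 CPM in Eed-/- astro replicate 2, from 1 read. Lin28a was at 0.524 CPM and Lin28b at 1.05 CPM in Eed+/+ astro replicate 1, from 1 and 2 reads. Lin28b was at 0.665 CPM in Eed-/- astro replicate 2, from 1 read, and Hmga2 at 3.71 CPM in Eed+/+ astro replicate 3, from 2 reads. The values from 1 or 2 reads lie under the floor of 3 counts.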

How the results depend on the processing

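At this depth Lin28a, Lin28b and, in astro libraries, Igf2bp1, Igf2bp2 and Hmga2 failed the filter. Genes called in astro libraries (0) became 5 with no filter, 1 with DESeq2 and 46 in the fit over 15 libraries, and 0 to 1 when each library was left out. In neuro libraries 0 became 127 with no filter, 27 with DESeq2, 1 within the limits and 3 in the 15-library fit, and 0 to 2601 with each library left out, the highest without Eed+/+ replicate 1. For Eed+/+ astro against neuro, 1 became 6 with RLE scaling, 2 with no filter, 8 with DESeq2, and 0 with limma-voom, within the limits or with the replicate block, and 0 to 3 with each library left out. For the Eed-/- comparison, 8 became 3 with no filter, 13 with DESeq2, 1 with limma-voom, and 0 within the limits or with the replicate block, and 0 to 26 with each library left out, the highest without Eed-/- astro replicate 5 and 0 without Eed-/- astro replicate 4 or Eed-/- neuro replicate 1. For the interaction, 7 became 21 with RLE scaling, 2 with no filter, 0 with limma-voom or within the limits, 1 with the replicate block, and 1 to 12 with each library left out. Where not shown by fewer libraries or genes, the cause was not tested.

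Correlations of same-numbered deviations ran from -0.26 to 0.17. They cannot decide whether same-numbered libraries share an animal, since groups of 2 give mirrored deviations and several libraries were outside the limits. The block called 0 genes in either genotype comparison, as did the main fits, and so does not decide it either. The main cell type and interaction fits took the libraries as unpaired. Of the members' astro values, 87 kept direction and call and 1 reversed: Igf2bp3 ran from -0.32 to 1.14 with each library left out. Over all astro alternatives with a value, Hmga1 ran from 0.15 (replicate block) to 1.60 (within the limits), Hmgn2 from 0.10 to 1.53 (1.37 with RLE scaling or DESeq2), Hmgn1 from -0.98 to -0.10 and Hmgn3 from -1.30 to -0.70. Of their neuro values 81 moved by at most 1 SE of the reported value and 11 by more, all 11 in Igf2bp2, Hmga1, Hmga2, Hmgn2 and Hmgn3. Over the alternatives that gave a value Igf2bp1 ran from 2.18 to 3.40, Igf2bp2 from 1.33 to 4.81, Igf2bp3 from 0.78 to 1.16, Hmga1 from 1.33 to 7.29, Hmga2 from 1.49 to 6.59, Hmgn1 from -0.01 to 0.35, Hmgn2 from 1.46 to 3.62 and Hmgn3 from -1.69 to 0.14. Igf2bp2 had no value without Eed-/- neuro replicate 1 or 3, nor Hmga2 without replicate 2 or 3, as they then failed the filter. RLE scaling moved the median of all genes in astro libraries from -0.54 to -0.37, in the Eed-/- cell type comparison from -0.72 to -0.49, in the Eed+/+ one from 0.08 to -0.11 and in the interaction from 0.79 to 0.31. The astro median was -0.02 within the limits and -1.80 with the replicate block.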

Other observations

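The library without a clear cell type label, of Eed-/- cells with 221456 gene reads, had 59 reads of Hmgn1, 11 of Hmgn2, 1 each of Lin28a and Lin28b, and 0 of the other members.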
